A study of Rattus norvegicus with 2 samples.

Results

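A set of genes was examined that are expressed by red cells and their precursors or by platelets and megakaryocytes, as a reading of the blood content of rat liver. 10 is the full list: 6 red cell genes (Hbb, Ahsp, Alas2, Slc4a1, Epb42 and Rhag) and 4 platelet genes (Pf4, Ppbp, Gp9 and Itga2b). They were found by matching the RefSeq accession of each non-control probe to a gene symbol, and 9 of the 10 had a named probe among 13667 named genes in all. Itga2b was not measured here. Of these 9 genes, 5 were well above background on both arrays, 2 on the senecionine array only and 2 on neither.

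Liver RNA of Sprague Dawley rats was hybridised to 2 one-colour Cy3 oligonucleotide arrays. The control group received sodium chloride, and the other group received senecionine, a pyrrolizidine alkaloid toxic to the liver, by the intragastric route at 35 mg/kg. Both were sampled 36 h after treatment, and the labels used here give neither age nor sex. Tissue of 3 samples was pooled in each group and each pool was read on 1 array, so no test between the groups is possible. Every error below is the scanner software's error of a spot, carried to the ratio, which leaves out the spread between animals. Each member probe had 1 spot, so this error is not a scatter between repeat spots. In bright spots it was close to a fixed share of the signal, such as 6035 of 60350 for the alpha globin Hba-a3 in the control pool.

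Red cells develop from nucleated erythroblasts that fill with haemoglobin, a tetramer of alpha and beta globin chains that hold haem. In the rodent liver erythroblasts are abundant before birth, while in the adult most red cells form in bone marrow and reach the liver with the blood, and reticulocytes, the youngest circulating red cells, still carry messenger RNA. Platelets are shed by megakaryocytes and take along a small store of megakaryocyte messenger RNA. In bulk tissue, fewer cells of a type and less RNA per cell cannot be told apart, and neither can more blood in the tissue and more messenger RNA per blood cell.

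Promoter sequences are shown for the members whose signal was higher on the senecionine array and which have an entry in the RefSeq promoter table of build GRCr8 (Hbb, Alas2, Epb42 and Gp9), and for the neighbouring beta globin Hbb-b1, whose probe gave another direction than that of Hbb. Each run is the 250 bases before the gene's start, 5′ to 3′ on the strand of the gene. Capitals mark matches, on either strand, to 4 short motifs, which are the GATA core (GATAA), the CACCC box (CACCC), the CCAAT box (CCAAT) and the TATA box (TATAAA). The CCAAT box matches in Hbb lie directly side by side, one on each strand. The windows are chr1:167663722-167663971 on the minus strand for Hbb, chr1:167643521-167643770 on the minus strand for Hbb-b1, chrX:22895200-22895449 on the plus strand for Alas2, chr3:128451684-128451933 on the minus strand for Epb42 and chr4:121792592-121792841 on the plus strand for Gp9.
Hbb: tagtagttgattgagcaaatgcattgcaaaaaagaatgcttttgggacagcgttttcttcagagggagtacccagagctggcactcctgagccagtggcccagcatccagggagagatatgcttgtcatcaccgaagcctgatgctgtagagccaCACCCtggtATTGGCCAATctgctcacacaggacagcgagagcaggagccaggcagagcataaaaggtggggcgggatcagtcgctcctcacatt
Hbb-b1: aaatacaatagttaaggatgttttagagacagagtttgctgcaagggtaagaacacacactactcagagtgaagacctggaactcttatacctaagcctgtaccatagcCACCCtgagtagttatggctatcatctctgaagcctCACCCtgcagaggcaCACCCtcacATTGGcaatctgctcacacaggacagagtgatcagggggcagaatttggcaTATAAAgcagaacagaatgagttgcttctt
Alas2: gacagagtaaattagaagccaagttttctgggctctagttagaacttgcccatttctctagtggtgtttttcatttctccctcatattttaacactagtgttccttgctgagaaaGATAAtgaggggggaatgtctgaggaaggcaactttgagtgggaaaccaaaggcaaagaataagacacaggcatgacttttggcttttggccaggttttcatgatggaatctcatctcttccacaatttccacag
Epb42: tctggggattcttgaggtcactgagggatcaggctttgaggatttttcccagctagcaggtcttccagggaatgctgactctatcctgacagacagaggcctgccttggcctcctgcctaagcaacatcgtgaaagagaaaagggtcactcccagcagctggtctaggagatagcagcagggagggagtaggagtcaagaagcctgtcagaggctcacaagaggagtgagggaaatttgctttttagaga
Gp9: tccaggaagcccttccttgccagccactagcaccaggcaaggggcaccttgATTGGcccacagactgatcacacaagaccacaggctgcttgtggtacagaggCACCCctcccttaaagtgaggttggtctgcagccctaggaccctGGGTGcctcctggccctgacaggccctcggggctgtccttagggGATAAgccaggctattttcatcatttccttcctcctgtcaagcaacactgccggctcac

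GATA factors and CACCC-binding factors are known regulators of red cell and megakaryocyte genes. The beta globin windows both hold a CCAAT match whose first base lies 81 bases before the start, and a CACCC match at 95 bases in Hbb and at 90 bases in Hbb-b1. Hbb-b1 also holds a TATAAA match at 30 bases, and the Hbb window holds none. Alas2 has a single GATAA match at 135 bases, Gp9 has one at 59 bases, and Epb42 has no match to any of the motifs. Over the 7 members with an entry, 4 held GATAA, 3 held CACCC, 3 held CCAAT and 1 held TATAAA. Among all 33469 promoters of the table the shares with a match were 23.5% for GATAA, 49.2% for CACCC, 34.0% for CCAAT and 12.9% for TATAAA. A match describes the letters only.

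The control array was dimmer, with 44.4% of 43379 non-control spots well above background against 64.1% on the senecionine array, and no spot was flagged as saturated. Signals were therefore scaled to each array's 75th percentile (101 and 134 intensity units), and the ratios are differences of log2 scaled signal, senecionine minus control. The control array was also noisier. Its negative controls were more spread out (SD 4.23 against 0.76), and its lowest signal well above background was higher (20.6 against 10.8). Scaling does not change which spots are well above background. How far this noise difference adds to detection on the senecionine array only was not tested. Hepatocyte markers checked the tissue: all 12 with a named probe were well above background on both arrays, and 8 of them were at least 2-fold lower after senecionine. The control array also carried nervous system markers, of which 11 of 14 measured genes were at least 2-fold lower on the senecionine array. Among all measured genes 17.7% were lower. The 1 higher marker was Npy, with 296 in the control pool and 2132 in the senecionine pool. A further 4 markers were detected on the control array only and 3 on the senecionine array only, against 1.24% and 19.1% of all named genes. Mbp, a myelin protein gene, read 1054 in the control pool and 16.2 in the senecionine pool. Their part in the results below was not tested.

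The 5 members with a signal on both arrays were all higher in the senecionine pool, and 4 of the 5 passed 2-fold, with a median log2 ratio of 1.52. Among the 7803 genes with a ratio, 11.2% reached 2-fold higher, 17.7% reached 2-fold lower, and the median log2 ratio was -0.14. No member was 2-fold lower. Both members detected on a single array, Epb42 and Gp9, were detected on the senecionine array, where 19.1% of all named genes were detected alone. On the control array alone 1.24% of named genes and 0 members were detected.

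**Figure D1:**
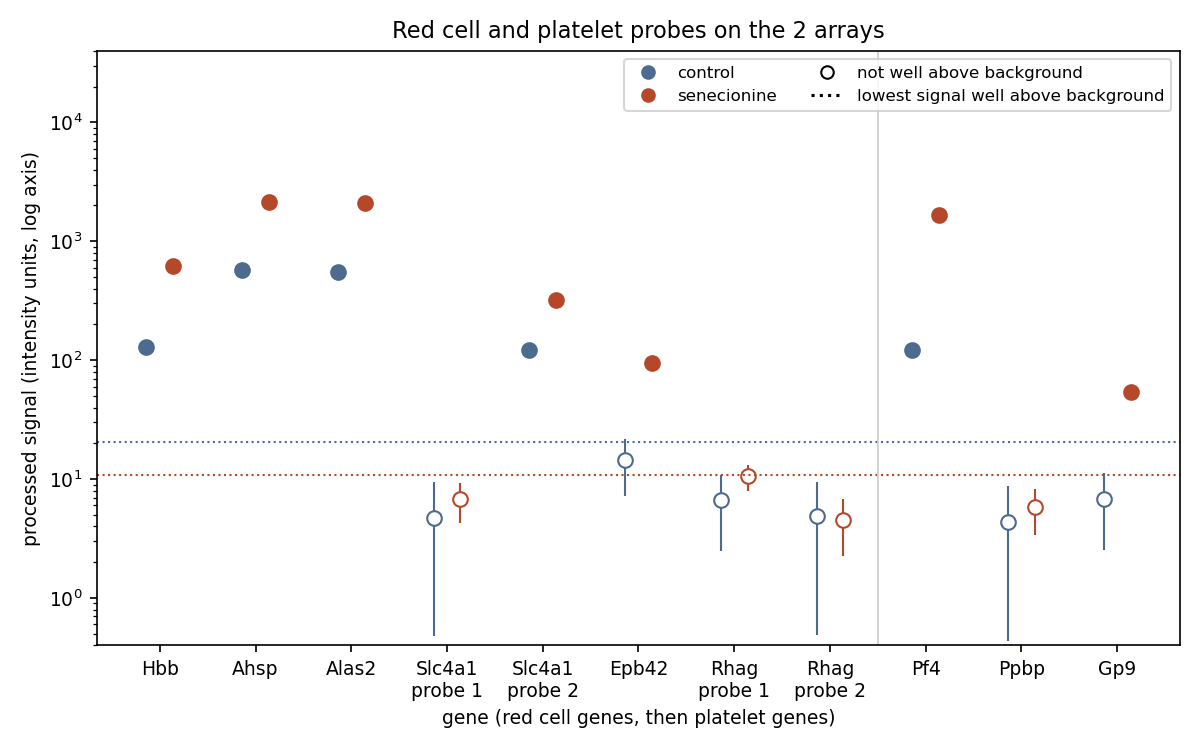
Processed signal in intensity units on a log axis for each probe of the 9 genes, with the control array in blue and the senecionine array in red. Bars are the scanner software's error of the spot (cut short on the lower side where they would reach 0), open circles are spots not well above background, and dotted lines give each array's lowest signal well above background (20.6 control, 10.8 senecionine). Filled circles appear in both colours for Hbb, Ahsp, Alas2, Slc4a1 and Pf4, only in red for Epb42 and Gp9, and in neither for Rhag and Ppbp.

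Hbb encodes a beta chain of haemoglobin. Its probe read 129 in the control pool and 622 in the senecionine pool. After scaling for the brighter senecionine array, the log2 ratio was 1.86 ± 0.21 (spot error), or 3.63-fold, and 247 of the measured genes had a higher ratio. Ahsp encodes the chaperone that holds free alpha globin until it meets a beta chain. Its signal was 576 in the control pool and 2124 in the senecionine pool, with a log2 ratio of 1.48 ± 0.20, or 2.78-fold. The ratios of the globin and of its partner's chaperone differed by 0.38 ± 0.29, within 2 spot errors.

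Probes for the other adult globins were far brighter than the Hbb probe (129 and 622) and gave smaller ratios. The alpha globin Hba-a3 read 60350 in the control pool and 122402 in the senecionine pool, a log2 ratio of 0.61 ± 0.20, or 1.53-fold. That is 1.25 ± 0.29 below Hbb, which exceeds 2 spot errors. This ratio depended on the scaling: it was 1.15 with quantile normalization and 1.13 with cyclic loess. It was 1.07 in the authors' deposited table, which lists only probes with an absolute log2 difference of at least 1.0. Another adult beta globin, Hbb-b1, read 29114 and 27548, with its only spot flagged as non-uniform on both arrays. It had a log2 ratio of -0.49 ± 0.20 if that flag is ignored. Rat globin genes lie in clusters of near-identical copies, so a probe can bind transcripts of several of them and the value for any single globin is uncertain.

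The other globins of the beta cluster with a named probe were dim, while Hbb-bs, Hbbl1 and Hbb-b2 had no named probe. Hbg1 read 17.4 and 72.2 and was well above background in the senecionine pool only, at least 2.64-fold higher. Such a bound sets the bright signal against the lowest signal well above background on the dim array, or the spot's own signal where that is higher. Hbe2 read 19.8 and 45.4, at least 1.67-fold higher. Hbe1, an embryonic globin of that cluster, and Hbz, an embryonic globin of the alpha cluster, were not well above background on either array. Of the globins made outside red cells, Cygb (cytoglobin, made by hepatic stellate cells among others) had a log2 ratio of 1.25, Mb (myoglobin) -0.47 and Ngb (neuroglobin, which neurons express) -0.82.

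Alas2 encodes the erythroid form of the first enzyme of haem synthesis. Its probe read 556 in the control pool and 2117 in the senecionine pool, and its log2 ratio was 1.52 ± 0.20, or 2.87-fold. That ratio lay within 2 spot errors of those of Hbb, Ahsp and Slc4a1. The form of the same enzyme that hepatocytes use, Alas1, had the opposite sign, with 9026 in the control pool and 5068 in the senecionine pool and a log2 ratio of -1.24 ± 0.20.

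The wider haem list held more lower than higher genes, as did all measured genes, of which 17.7% were 2-fold lower and 11.2% 2-fold higher. In the list of 18 genes of haem synthesis and iron supply, 15 were measured on both arrays, 0 were 2-fold higher and 4 were 2-fold lower, with a median log2 ratio of -0.70. With quantile normalization, cyclic loess, normexp, the percentile over probes detected on both arrays, the looser detection filters or the mean of detected probes, 1 was higher. Alad, the second enzyme, had a ratio of -1.35, Glrx5, an iron-sulphur cluster protein, -1.31, and Slc25a38, a mitochondrial glycine carrier, -1.25. Fech, which inserts the iron, read 232 and 223, with a log2 ratio of -0.47. Tfrc, the transferrin receptor, had a ratio of 0.95 by its brightest probe and of 1.80 and 1.17 by the other 2. The count of lower genes in this list was 6 with median scaling and 2 with quantile normalization or normexp. Several of these genes are also made by hepatocytes, whose markers had a median log2 ratio of -1.13. The part of hepatocytes in the values of this list was not tested.

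**Figure D2:**
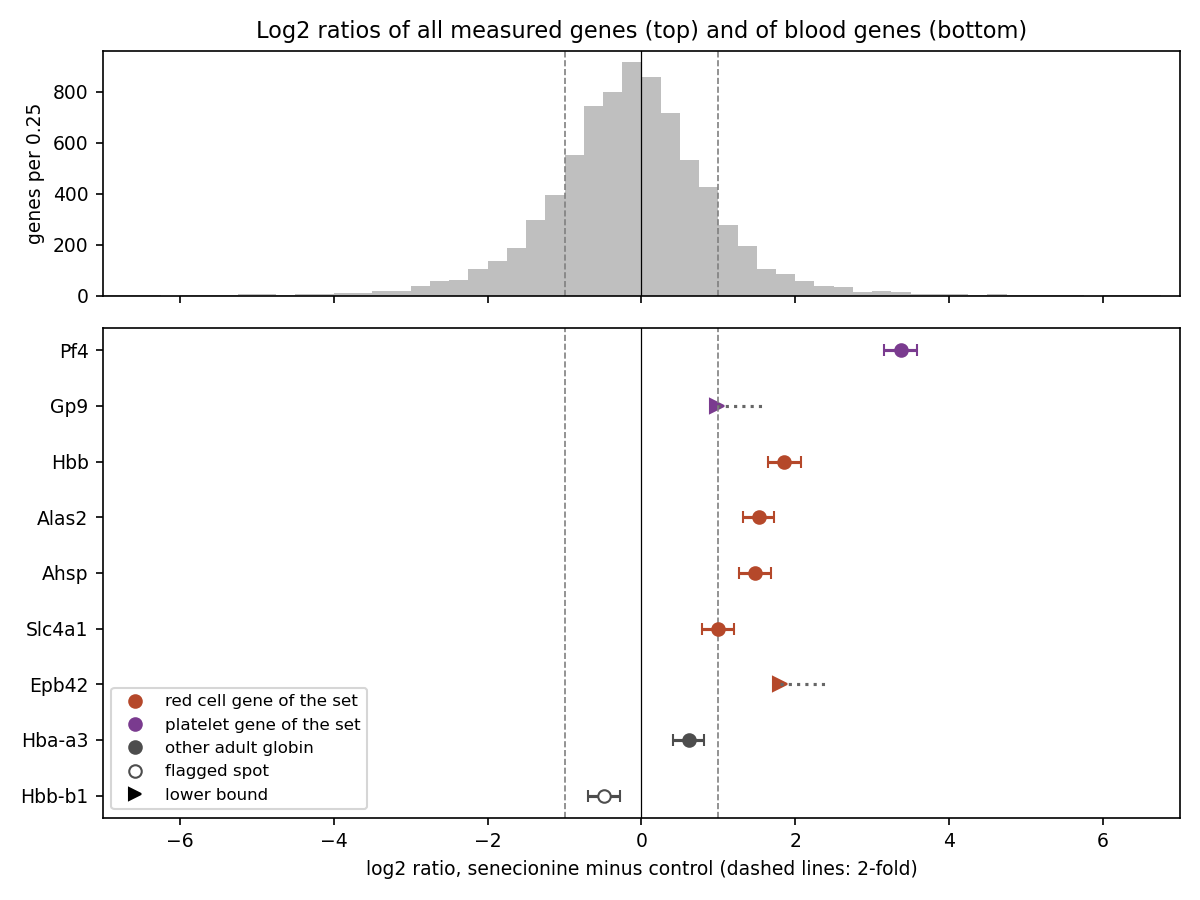
Log2 ratio, senecionine minus control, for all measured genes (top, genes per bin of 0.25) and for the measured members and adult globins (bottom), with bars for spot error and triangles for lower bounds. Pf4 lies at 3.37, Hbb, Alas2 and Ahsp lie between 1.48 and 1.86, Slc4a1 lies on the 2-fold line, and the flagged Hbb-b1 spot lies below 0.

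Slc4a1 encodes band 3, the anion exchanger that anchors the red cell skeleton. Its brighter probe read 122 in the control pool and 323 in the senecionine pool, with a log2 ratio of 0.99 ± 0.21, or 1.99-fold, just below the 2-fold line. Its other probe read 4.75 and 6.74, not well above background on either array. Slc4a1 had the lowest ratio of the 5 measured members, 0.86 ± 0.30 below Hbb, which exceeds 2 spot errors, while its differences from Ahsp and Alas2 did not.

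Epb42 encodes protein 4.2, which binds band 3 to ankyrin. It read 14.5 in the control pool, not well above background, and 94.8 in the senecionine pool, at least 3.47-fold higher. Rhag, the ammonium channel of the Rh complex, had 1 probe at 6.67 and 10.5 and another at 4.90 and 4.55. None of these Rhag signals was well above background, so no ratio is given. The membrane genes therefore ranged from a clear signal on both arrays to none on either.

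Other genes of the red cell membrane and skeleton that had a named probe were all detected on the senecionine array. That array was the brighter one, with 64.1% of all non-control spots well above background. Of 24 listed, 16 had a named probe and 10 were measured on both arrays, with a median log2 ratio of 0.34. Of these 10, 2 were 2-fold higher and 0 lower, against 11.2% and 17.7% of all measured genes. The 2 were Slc2a1, the glucose transporter GLUT1 that many other cells also use, at 2.33, and Gypc, glycophorin C, at 1.17. Rhd, the Rh antigen, had a ratio of 0.91 and Kel, the Kell antigen, 0.79, both below 2-fold. The other 6 of the 16 were detected in the senecionine pool only, as were 19.1% of all named genes. Among them Tmod1, which caps actin, was at least 4.60-fold higher, Add2, beta adducin, at least 3.40-fold and Piezo1, a mechanosensitive channel, at least 2.09-fold. Sptb, a beta spectrin (5.22 and 14.3), belonged to these 6, too dim for a bound above 1.

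Regulators and enzymes of red cell development were taken as a list of their own. Of 21 named, 13 were measured, 2 were 2-fold higher and 2 lower, with a median log2 ratio of -0.39. Car2, carbonic anhydrase 2, had a ratio of 1.68 and Bpgm, which makes 2,3-bisphosphoglycerate in red cells, 1.61. Pklr, the pyruvate kinase of liver and red cells, had a ratio of -1.55 and Zfpm1, the GATA1 cofactor FOG1, -1.31. Hemgn (hemogen), Lmo2 and Fhdc1 were detected in the senecionine pool only, at least 3.09-fold, 2.62-fold and 2.57-fold higher. The factors Gata1 (4.19 and 24.9) and Klf1 (8.50 and 26.9) were detected there only as well, but were too dim for a bound above 1. Epor, the erythropoietin receptor, had a ratio of -0.81.

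Over the globin, membrane, haem and regulator lists together, 11.9% of 42 measured genes were 2-fold higher and 14.3% 2-fold lower, close to the shares over all genes. The median of these genes was -0.30. Of their 63 named genes, 27.0% were detected in the senecionine pool only, against 19.1% of all named genes. Many genes of these wider lists are also expressed outside red cells.

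**Figure D3:**
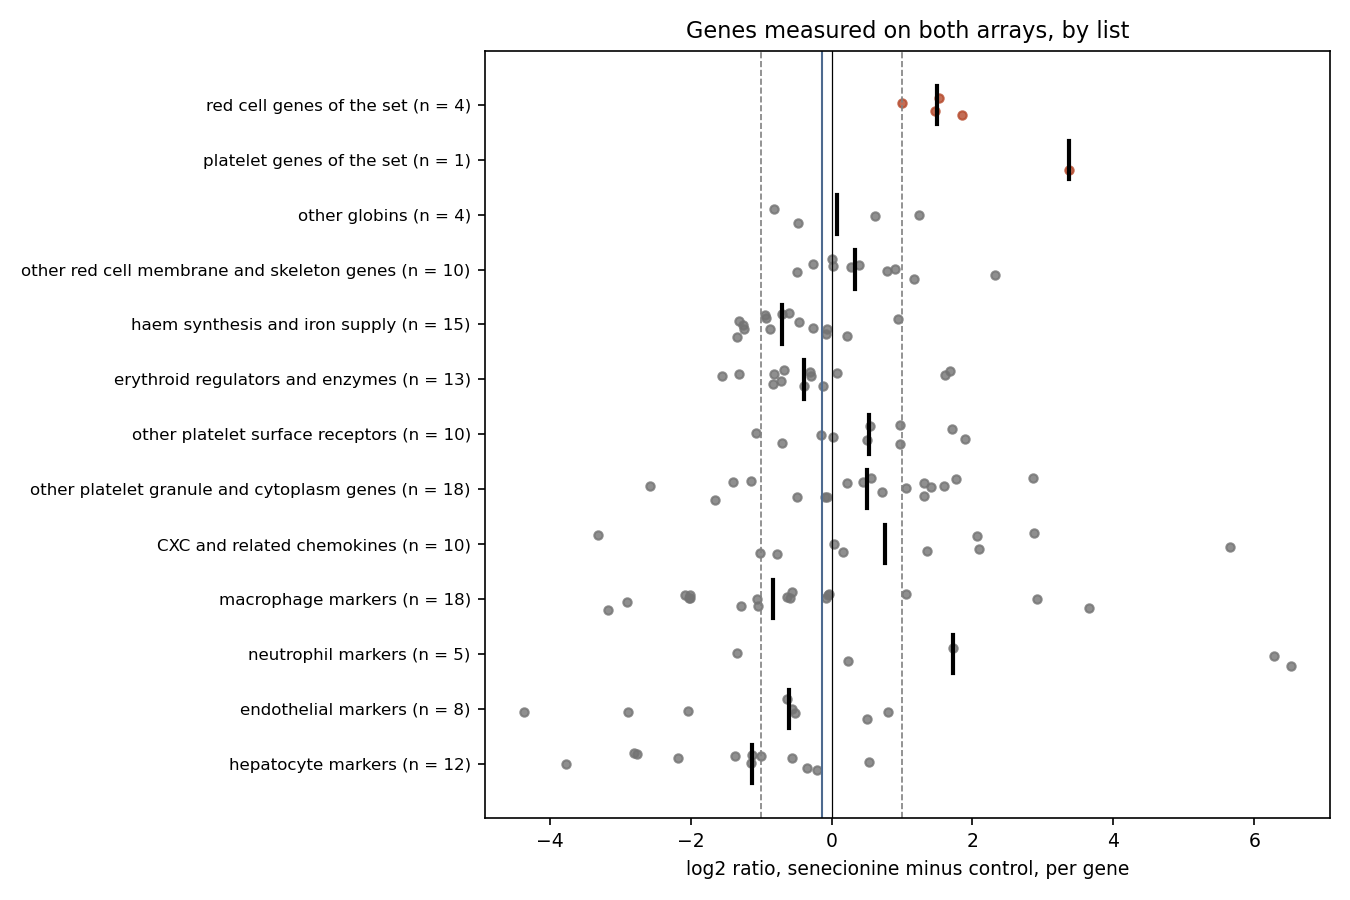
Log2 ratio, senecionine minus control, of each gene measured on both arrays, by list, with a black bar at each list's median, a blue line at the median of all measured genes (-0.14) and dashed lines at 2-fold. The red cell genes of the set lie at or right of the upper 2-fold line, while haem synthesis genes have a median of -0.70 and hepatocyte markers of -1.13.

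Pf4, platelet factor 4 or Cxcl4, is a heparin-binding chemokine kept in the alpha granules of platelets. Its probe read 121 in the control pool and 1666 in the senecionine pool. The log2 ratio was 3.37 ± 0.21, or 10.3-fold, and 42 of the 7803 measured genes had a higher ratio. Pf4 exceeded each of the 4 measured red cell members by more than 2 spot errors, with differences from 1.51 ± 0.30 (Hbb) to 2.38 ± 0.30 (Slc4a1). Ppbp, the precursor of the platelet chemokine Cxcl7, is the gene next to Pf4. It read 4.38 in the control pool and 5.86 in the senecionine pool, not well above background on either array, so these 2 granule chemokines differed in detection.

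Pf4 is also known from macrophages, and the other leukocytes of the tissue differed between the pools. Of 20 named macrophage markers 18 were measured, of which 3 were 2-fold higher, among them Gpnmb at 3.66, and 9 lower, among them the Kupffer cell lectin Clec4f at -3.17. Their summed signal, in units of the array's 75th percentile, was 366 in the control pool and 333 in the senecionine pool, where Lgals3 alone gave 43.8% of it. Of 17 named neutrophil markers 5 were measured, with 3 at least 2-fold higher and 1, Prtn3 at -1.34, lower. The other detected ones, 9 in number, were detected in the senecionine pool only, as were 19.1% of all named genes. The summed signal of the 5 measured neutrophil markers was 6.78 in the control pool and 79.6 in the senecionine pool. There S100a9, with a log2 ratio of 6.53, and S100a8, with 6.28, gave 84.3% of it. Of 14 named endothelial markers, which line the vessels that hold the blood, 8 were measured, 0 were 2-fold higher and 3 were lower, with a median log2 ratio of -0.60. The lower ones were Dnase1l3 at -4.37, Kdr at -2.89 and Oit3 at -2.04. The part of these cells in the value for Pf4 was not tested.

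Gp9 encodes a subunit of the glycoprotein Ib-IX-V complex, by which platelets bind von Willebrand factor. It read 6.85 in the control pool, not well above background, and 53.9 in the senecionine pool, at least 1.97-fold higher. The rest of the complex was uneven. Gp1bb read 129 in the control pool and 338 in the senecionine pool, a log2 ratio of 0.98. Gp1ba (24.4 and 21.9) and Gp5 (5.20 and 14.8) were well above background in the senecionine pool only, both too dim for a bound above 1.

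Of 23 named platelet receptor genes other than the members, 10 were measured on both arrays, with 2 at least 2-fold higher, 1 lower and a median log2 ratio of 0.53. With cyclic loess, or with the percentile taken over probes detected on both arrays, 4 were higher. Cd63, a granule membrane protein found in many cells, had a ratio of 1.89, Cd36, a thrombospondin and fatty acid receptor, 1.71, and Tbxa2r, the thromboxane receptor, -1.08. Treml1, a receptor of platelet granules, read 11.4 and 237 and was at least 8.70-fold higher. Cd9 was at least 3.81-fold and F2rl2, the thrombin receptor PAR3, at least 3.27-fold higher. Itgb3, the integrin chain that pairs with Itga2b on platelets, went the other way. It read 29.0 in the control pool and 3.56, not well above background, in the senecionine pool, at least 3.57-fold lower.

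Of 30 named genes of platelet granules and cytoplasm, 18 were measured, with 7 at least 2-fold higher, 4 lower and a median log2 ratio of 0.50. Pkm, a pyruvate kinase of many tissues, had a ratio of 2.86 and Pdgfa, a platelet growth factor chain, 1.77. Nrgn, which platelets and neurons share, had a ratio of -2.57, in the direction of the nervous system markers given above. Stom (stomatin) was at least 3.32-fold and Mmrn1, a granule multimerin, at least 2.69-fold higher. Over both platelet lists 32.1% of 28 measured genes were 2-fold higher and 17.9% lower, and 35.8% of 53 named genes were detected in the senecionine pool only. The shares over all genes were 11.2% higher, 17.7% lower and 19.1% detected in the senecionine pool only. Many genes of both platelet lists, such as Cd63 and Pkm, are also expressed outside platelets, so these shares are not a reading of platelets alone.

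Genes that handle haemoglobin and haem once red cells break down were described as well. Hmox1, haem oxygenase 1, read 411 in the control pool and 13796 in the senecionine pool, with a log2 ratio of 4.66 ± 0.06, or 25.3-fold. Of the other 7 measured genes of that list none was 2-fold higher. Lrp1, a receptor for haem bound to haemopexin among other ligands, was 2-fold lower at -1.45. Hmox2, the constitutive enzyme, had a ratio of -0.59 and Slc48a1, a haem transporter, 0.49.

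The neighbours of the members in the genome were read from the RefSeq gene order, as the 5 protein-coding genes on each side. Of 84 distinct neighbours 31 were measured, with 2 at least 2-fold higher, 5 lower and a median log2 ratio near 0 (-0.0016). Over all measured genes 11.2% were 2-fold higher and 17.7% lower, so the neighbours as a set did not stand out as higher. Pf4 and Ppbp lie in a chemokine cluster. There Cxcl1, a neutrophil attractant, had a ratio of 5.66, and Cxcl2 read 4.40 and 1019 and was at least 37.4-fold higher. On the far side of that cluster Rassf6 had a ratio of -0.03, Albfm1 -2.13 and Afm, the plasma protein afamin, -1.40. Slc4a1 and Itga2b lie 5 genes apart, and between them Rundc3a, a gene of nervous tissue, had a ratio of -4.18, Slc25a39 -0.93 and Grn, progranulin, 0.81. Beside Ahsp, Bag3, a stress-induced co-chaperone, had a ratio of 1.02, and beside Alas2, Pfkfb1, a glycolysis regulator of liver, -2.31.

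The authors' deposited table holds 7404 probes, all with an absolute log2 difference of at least 1.0 between the arrays, so it is a selected list. It lists 7 of the members. In the authors' deposited table the log2 differences were 3.55 for Pf4, 2.38 for Gp9, 2.31 for Epb42, 1.91 for Hbb, 1.77 for Alas2, 1.73 for Ahsp and 1.02 for Slc4a1. Both Gp9 and Epb42 have a control spot not well above background, so their listed differences are not bounds.

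**Figure D4:**
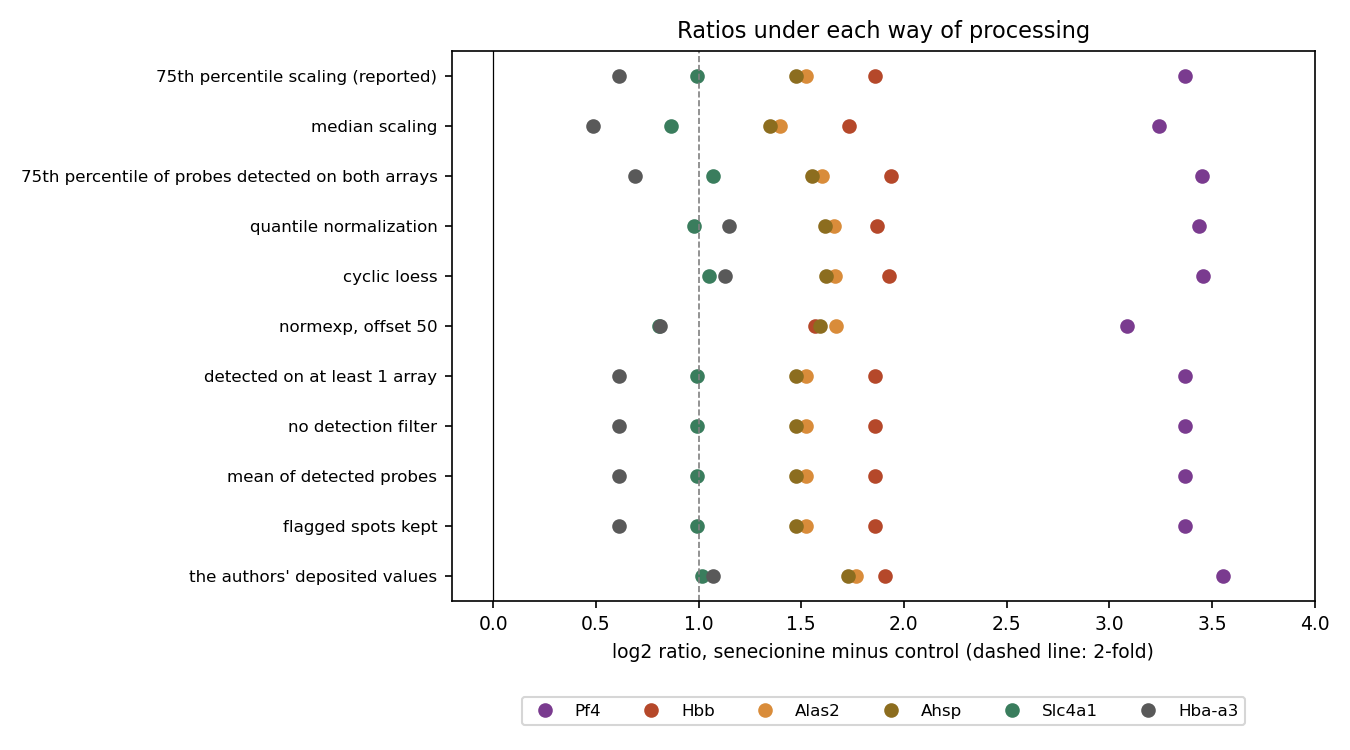
Log2 ratio, senecionine minus control, of the 5 measured members and Hba-a3 under the reported processing and 10 alternatives, with a dashed line at 2-fold. Pf4 stays between 3.08 and 3.55, Hbb, Ahsp and Alas2 stay right of the line, and Slc4a1 (0.81 to 1.07) and Hba-a3 (0.49 to 1.15) lie on either side of it.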

How the data were processed

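Each array's scanner output was deposited as Agilent Feature Extraction text, whose processed signals are intensity values from Agilent's one-colour protocol, per the file headers, beside a background-subtracted column. The submitters' processing notes name Agilent Feature Extraction 10.7.3.1. The authors' deposited table holds log2 values of a selected set of probes, and the sources used here do not say how they were normalized. Here, log2 of each non-control processed signal was scaled to the array's 75th percentile. Spots flagged as non-uniform or as population outliers were left out, and spots of a probe were averaged. Probes were named by RefSeq accession (17250 of 40516 matched 1 gene, GRCr8 gene table, used for names and gene order only). A gene was represented by its brightest probe well above background on both arrays, and 2-fold (log2 ratio of 1) was the threshold. With 1 pool and 1 array per group there is no test, and precision is limited by the number of arrays. The median spot error of a ratio was 0.21. Members and gene lists were chosen with earlier results of these data known. Of each list, the text names the 4 genes with the largest ratio and those with a bound past 2-fold, except a few that are not reported here; other genes of the lists were named for their role, with their values known. Alternatives covered scaling (median, quantile, cyclic loess, a percentile over detected probes), normexp with offset 50 on median spot signals, detection, probe choice, flags, threshold and the authors' values. The scripts ran in Python 3.11.15 and R 4.3.3 with limma 3.58.1, and were tested on simulated data.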

Additional observations from a re-analysis of the deposited data

How the results depend on the processing

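The count of members at least 2-fold higher was 4. It lay between 4 and 6 under the other scalings, background correction, detection filters, probe choice and flags. Under those settings 7.9% (normexp) to 22.6% (detected on at least 1 array) of all genes were 2-fold higher. The count was 5 with a 1.5-fold threshold and 1 with a 4-fold threshold, for which the shares of all genes are not given here. It was 7 with the authors' deposited values, a list already selected on the difference, where 57.8% of 3522 genes were 2-fold higher. No member was 2-fold lower under any of these. The median log2 ratio of the members, 1.52, was 1.86 with genes detected on at least 1 array, where 7 members enter and 22.6% of all genes are 2-fold higher with a median of 0.098, and 1.91 with the authors' deposited values. Hbb lay between 1.57 and 1.94, Ahsp between 1.35 and 1.73, Alas2 between 1.40 and 1.77 and Pf4 between 3.08 and 3.55, all at least 2-fold higher under the 6 alternatives that changed their ratios; detection filters, probe choice and flags left them as they were. Slc4a1 and Hba-a3 were at least 2-fold higher under 3 of these 6, which for both genes include the authors' deposited values, where the selection fixes that outcome. Median scaling moved the median of all measured genes from -0.14 to -0.26, and every ratio with it. No paired analysis was possible because each group has 1 array. Signal over background limits the dim members: no ratio can be given for Rhag or Ppbp, and only a bound for Epb42 and Gp9.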

Other observations

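Growth factors and hormones that act on blood cells or iron were measured in the same liver RNA. Of 11 named genes 4 were measured on both arrays. Igfbp1, a secreted binding protein for insulin-like growth factors, read 1781 in the control pool and 41637 in the senecionine pool, with a log2 ratio of 4.14. Kitlg, stem cell factor, had a ratio of 2.20 and Igf1 one of -1.35. Hamp, hepcidin, the liver hormone that limits iron release, had a ratio of -0.21, within 2-fold. Il6 was detected in the senecionine pool only, at least 2.02-fold higher. Lymphocyte markers were mixed, with 3 of 10 measured genes 2-fold higher, 1 lower and a median log2 ratio of 0.15.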
